A study of Homo sapiens with 8 samples.

Results

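The ABCC multidrug resistance proteins are membrane pumps of the ATP-binding cassette superfamily that move drugs, glutathione, glucuronide and sulfate conjugates and signalling molecules out of cells. The genes ABCC1, ABCC2, ABCC3, ABCC4, ABCC5 and ABCC10 were selected by their symbols from the 62700 entries of a gene count table, and 6 of 6 were found and passed the filter on low counts. Poly-A RNA had been sequenced from foam cells made from THP-1, a human monocytic leukaemia line. All 8 libraries came from cells made macrophage-like by PMA, a phorbol ester (72 h at 50 ng/mL), then loaded with acetylated LDL for 48 h, which fills macrophages with cholesteryl esters. In 4 libraries (AF) the cells had received 0.5 µM auranofin (a gold-containing drug that blocks thioredoxin reductase), and in 4 libraries (DMSO) the vehicle alone, below 0.1% by volume. By the sample protocol the drug was present for 24 h before the lipid load and through it, whereas the design text of the series places it after the load. The comparison addressed what the drug does to foam-cell expression. As a model, these are cells of 1 leukaemia line, and the labels name no separate cultures within a group, so a p-value measures spread among these libraries that may be technical.

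Conjugate export is the last step of a route that begins with glutathione transferases, sulfotransferases or glucuronosyltransferases, which attach a charged group to a reactive or foreign molecule. The charged product cannot cross the membrane unaided, and ABCC pumps use ATP to expel it. ABCC1 carries glutathione conjugates, oxidised glutathione and leukotriene C4. ABCC3 carries glucuronides and bile salts, ABCC4 and ABCC5 carry cyclic nucleotides, and ABCC2 is best known from the bile-facing membrane of liver cells. In macrophages and other white blood cells the family is known for releasing mediators of inflammation such as leukotriene C4.

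With auranofin the family moved in 2 directions. ABCC1 and ABCC3 rose, by 0.59 ± 0.09 and 0.65 ± 0.07 on the log2 scale (SE), while ABCC4 and ABCC5 fell, by 0.47 ± 0.11 and 0.45 ± 0.09. ABCC2 and ABCC10 did not pass the test. The test was edgeR's quasi-likelihood test with Benjamini-Hochberg adjustment over 17535 genes, called at an adjusted p under 0.05. By that rule 4 of the 6 exporters were called, with 2 higher and 2 lower in AF. Of all genes tested 15.4% were called, 7.62% higher and 7.81% lower. Leaving out AF replicate 3 lowered that share to 9.40%, leaving out DMSO replicate 2 to 8.97% and leaving out DMSO replicate 3 to 9.12%. Scaled by library totals only, it was 5.04%, and 2 of the 6 exporters were called. The median log2 fold change was 0.18 over the 6 exporters and 0.005 over all genes tested. The median of the exporters lies midway between ABCC10 (-0.12) and ABCC2 (0.49), neither of them called, and ABCC2 had only 8 to 32 counts per library.

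Library depth lay between 19336073 and 32325981 counts. AF replicate 1 stood apart: the 4 Ensembl entries with most counts in it, long non-coding RNA entries of chromosome 21 in GENCODE 29, took 33.0% of the total there, and 0.728% to 0.936% elsewhere. Its composition factor was 0.679, against 1.04 to 1.08 in the others, so the log2 fold changes were also computed without it. Markers chosen for macrophages were present in every library, and 9 of 10 exceeded 1000 counts in all 8. Their summed level was 3845 to 4241 CPM (counts per 1000000 of the scaled library) in AF and 4613 to 5228 CPM in DMSO, which did not overlap. Without the lysozyme gene LYZ, the sums overlapped, at 3130 to 3456 CPM in AF and 3276 to 3662 CPM in DMSO. Dropping LYZ was not among the planned steps, and no other marker was dropped. Of the 10 markers 2 rose and 4 fell, against 7.62% called higher and 7.81% lower over all genes tested. LYZ fell by 0.95 ± 0.09 on the log2 scale, the mannose receptor gene MRC1 fell to 2.88 ± 0.394 CPM in AF, against 8.05 ± 1.52 CPM in DMSO, and the integrin gene ITGAM rose by 0.43 ± 0.07. The other 3 called, named after their values were seen, were CD14 (0.33), the scavenger receptor gene MSR1 (-0.73) and the Fc receptor gene FCGR1A (-0.20). The part of this shift in the results was not tested. Among 9 markers of other cell types, MS4A1, EPCAM, KRT19 and HBB had 0 counts in every library, and the summed level was 297 to 324 CPM in AF and 312 to 322 CPM in DMSO, most of it PECAM1, which monocytes also express. In bulk RNA, fewer cells expressing a gene and less RNA per cell cannot be told apart.

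ABCC1, which encodes the pump for glutathione conjugates and leukotriene C4 (MRP1), measured 118, 141, 141 and 103 CPM across AF replicates 1 to 4, against 83.3, 84.3, 84.3 and 82.4 CPM in DMSO replicates 1 to 4. Every AF library exceeded every DMSO library, and the AF libraries were the more spread of the 2 groups, with replicates 2 and 3 above replicates 1 and 4. ABCC1 averaged 126 ± 19.0 CPM in AF and 83.6 ± 0.906 CPM in DMSO (mean ± SD, n = 4 each), a 1.51-fold level (adjusted p = 0.00035, edgeR). In libraries 1 and 4 of each group alone the log2 fold change was 0.41 (adjusted p = 0.0987), and in libraries 2 and 3 alone 0.75. Of the 2705 genes called with all libraries, 210 were also called in libraries 1 and 4 and 2495 in libraries 2 and 3. No label gives that division: it was seen in the counts and follows the spread of ABCC1 within AF. The gene (ENSG00000103222.18) spans chromosome 16 from 15949577 to 16143074 on the plus strand of GRCh38.

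ABCC3, which encodes the glucuronide and bile salt pump MRP3, had 107, 123, 114 and 98.2 CPM in AF replicates 1 to 4, against 68.7, 75.8, 70.8 and 66.9 CPM in DMSO replicates 1 to 4. The groups did not overlap here either, and the AF library with the least, replicate 4, was still above every DMSO library. The means were 111 ± 10.4 CPM in AF and 70.6 ± 3.83 CPM in DMSO, a 1.57-fold level (adjusted p = 3.0e-05, edgeR). ABCC3 ranked 70th by p among the genes tested, and ABCC1 ranked 260th. The gene (ENSG00000108846.15) spans chromosome 17 from 50634777 to 50692252 on the plus strand.

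**Figure D1:**
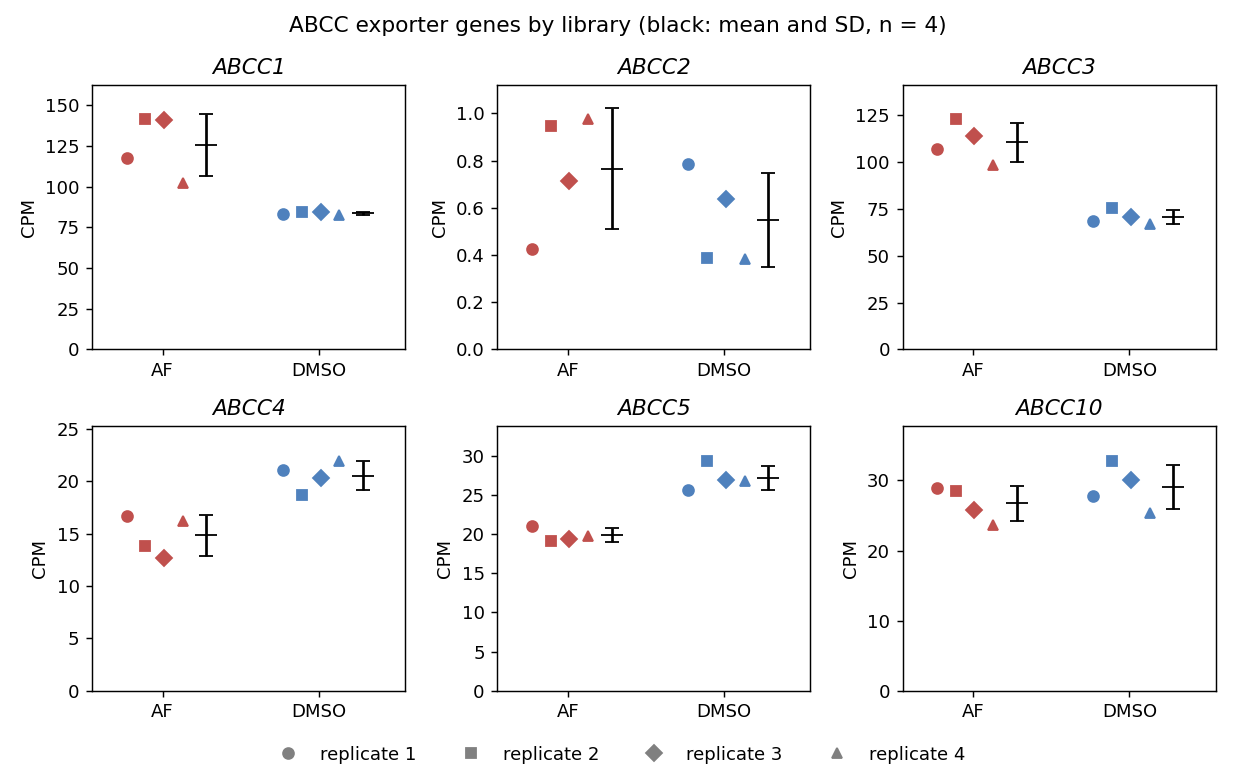
Level of each of the 6 ABCC exporters (CPM, linear axes from 0) in the 4 AF and 4 DMSO libraries, 1 symbol per replicate number, with the mean and SD of each group in black. AF lies above DMSO without overlap for ABCC1 and ABCC3 and below it for ABCC4 and ABCC5, while the groups overlap for ABCC2 and ABCC10.

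ABCC4 encodes MRP4, a pump for cyclic nucleotides, prostaglandins and urate. It had 16.7, 13.8, 12.7 and 16.2 CPM in AF replicates 1 to 4, against 21.1, 18.7, 20.3 and 22.0 CPM in DMSO replicates 1 to 4. All AF values were below all DMSO values, and AF replicates 2 and 3 were lowest. The means of 14.8 ± 1.94 CPM in AF and 20.5 ± 1.40 CPM in DMSO gave a 0.722-fold level (adjusted p = 0.0079, edgeR). ABCC4 (ENSG00000125257.14) lies on the minus strand of chromosome 13 from 95019829 to 95301475.

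ABCC5 encodes MRP5, a pump for cyclic GMP and other organic anions. It had 21.1, 19.1, 19.4 and 19.8 CPM in AF replicates 1 to 4, against 25.6, 29.4, 26.9 and 26.7 CPM in DMSO replicates 1 to 4. The AF values lay close together and below each DMSO value. The level was 0.730-fold, with 19.9 ± 0.858 CPM in AF and 27.2 ± 1.58 CPM in DMSO (adjusted p = 0.00385, edgeR). ABCC5 (ENSG00000114770.16) lies on the minus strand of chromosome 3 from 183919934 to 184018015. An antisense gene, ABCC5-AS1, lies within these bounds, and its exons do not overlap those of ABCC5 in GENCODE 29.

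For the pair that fell, the stretch before the start of each gene is shown, since a promoter is where members that move together could be compared. RefSeq promoter sequences were matched for 4 of the 6 exporters, ABCC2, ABCC4, ABCC5 and ABCC10. Only bases outside the GENCODE 29 gene are printed, on GRCh38.p14, 5′ to 3′ on the strand of the gene. ABCC4 has 226 bases at chr13:95301476-95301701 and ABCC5 119 bases at chr3:184018016-184018134, both on the minus strand. Capitals mark matches, on either strand, to 4 motifs: the GC box GGGCGG, the E-box CACGTG, the xenobiotic response element core GCGTG and the antioxidant response element core TGACNNNGC. The motifs were chosen with the results known, and no base lies in matches to more than 1 motif.
ABCC4: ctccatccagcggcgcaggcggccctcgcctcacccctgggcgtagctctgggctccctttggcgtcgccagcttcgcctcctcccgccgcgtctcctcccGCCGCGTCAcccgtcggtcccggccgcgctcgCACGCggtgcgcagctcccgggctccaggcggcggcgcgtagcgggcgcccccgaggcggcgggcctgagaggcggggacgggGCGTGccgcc
ABCC5: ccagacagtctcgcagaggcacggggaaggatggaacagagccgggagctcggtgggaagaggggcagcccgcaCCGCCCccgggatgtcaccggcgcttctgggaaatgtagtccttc
The ABCC4 stretch has a GC content of 80.1% and held 1 match to the antioxidant response element core, on the reverse strand, and 2 to the xenobiotic core. Among 35116 RefSeq promoters cut to the same length, 9.76% held at least 1 match to the antioxidant core and 29.7% at least 1 to the xenobiotic core. The ABCC5 stretch (66.4% GC) held 1 GC box and no match to the other 3 motifs. Of promoters cut to its length, 20.5% held at least 1 GC box. The pair shared none of the 4 motifs in these windows. The windows differ in length and leave out RefSeq promoter bases that lie inside the GENCODE 29 gene. Such windows cannot decide whether the 2 promoters share a motif. A match is a description of letters and not a binding site.

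The CPM of AF and DMSO did not overlap for 4 of the 6 exporters, against 19.5% of all genes tested (9.86% higher and 9.68% lower in AF). Without AF replicate 1 the same 4 were called, with log2 fold changes of 0.62 for ABCC1, 0.66 for ABCC3, -0.53 for ABCC4 and -0.49 for ABCC5. Each of the 4 calls held when any single library was left out, with adjusted p-values of 0.028 or less (edgeR). With 2 libraries per group, ABCC4 was not called in those of name suffix 1 (-0.45) or suffix 2 (-0.50). The suffix is the number that ends the library name. ABCC5 was not called in suffix 2 (-0.46). In libraries 1 and 4 neither ABCC4 (-0.39) nor ABCC5 (-0.36) was called. In DMSO each suffix holds the 2 libraries that share 1 name stem, whereas in AF each suffix holds 1 library of each of 2 stems. Of the 2705 genes called with all libraries, suffix 1 alone kept 889 and suffix 2 alone kept 480. Libraries 1 and 4 alone kept 210 of them, and libraries 2 and 3 alone kept 2495. That last division was seen in the counts and is given by no label. ABCC1, ABCC4 and ABCC5 lay furthest from DMSO in AF replicates 2 and 3, so the division is no separate check of their calls. Scaling by library totals alone, which the overrepresented entries of AF replicate 1 enter, ended the calls of ABCC1 (adjusted p = 0.123, edgeR) and ABCC3 (adjusted p = 0.0673, edgeR). It kept those of ABCC4 (adjusted p = 0.044, edgeR) and ABCC5 (adjusted p = 0.047, edgeR), both close to the threshold. That scaling moved the median of all genes to -0.15 on the log2 scale, so that ABCC1 at 0.45 and ABCC3 at 0.50 were still above it. ABCC4 at -0.64 and ABCC5 at -0.61 moved down with the median.

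ABCC10, which encodes the taxane and glucuronide pump MRP7, had 28.9, 28.6, 25.8 and 23.7 CPM in AF replicates 1 to 4, against 27.8, 32.8, 30.1 and 25.4 CPM in DMSO replicates 1 to 4. The groups overlapped. Its log2 fold change was -0.12 with a 95% interval of -0.34 to 0.10 (adjusted p = 0.478, edgeR), so a rise as large as that of ABCC1 or ABCC3 lies outside the interval and a small fall does not. ABCC10 (ENSG00000124574.14) spans chromosome 6 from 43427366 to 43450430 on the plus strand, and 1.0% of its exon bases are overlapped by DLK2 on the other strand.

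ABCC2, the bile-facing pump of liver cells (MRP2), was close to absent. It had 8, 32, 22 and 25 counts in AF replicates 1 to 4, against 23, 10, 15 and 8 counts in DMSO replicates 1 to 4. The groups overlapped, and the log2 fold change of 0.49 had a 95% interval of -0.24 to 1.22 (adjusted p = 0.367, edgeR). At this depth the interval holds both no change and a log2 fold change of 1. ABCC2 (ENSG00000023839.11) spans chromosome 10 from 99782640 to 99852594 on the plus strand.

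**Figure D2:**
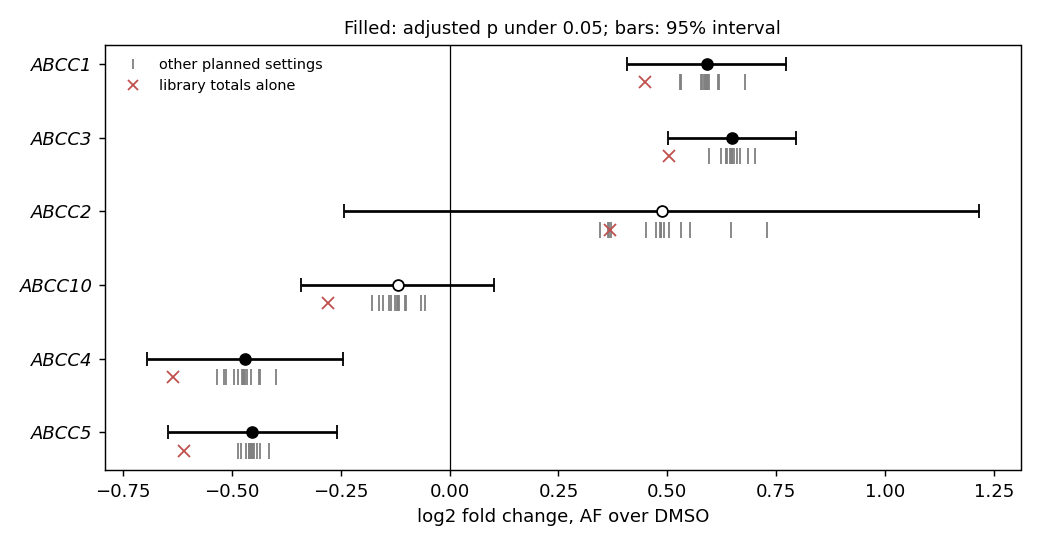
Log2 fold change of each exporter, AF over DMSO, with its 95% interval; filled points have an adjusted p under 0.05. Grey ticks are the other planned settings and red crosses the scaling by library totals alone, which lies to the left of the main value for all 6 genes, at 0.45 for ABCC1 and -0.64 for ABCC4.

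Per length, ABCC1 and ABCC3 had the highest transcript levels of the 6 exporters. With the merged exons of GENCODE 29 as length, ABCC1 stood at 16.6 ± 2.51 CPM per kb in AF and 11.04 ± 0.12 CPM per kb in DMSO, and ABCC3 at 11.5 ± 1.09 CPM per kb in AF and 7.34 ± 0.398 CPM per kb in DMSO (mean ± SD, n = 4 each). ABCC10 followed with 3.31 ± 0.305 CPM per kb in AF and 3.59 ± 0.392 CPM per kb in DMSO. ABCC4 had 1.72 ± 0.225 CPM per kb in AF and 2.38 ± 0.162 CPM per kb in DMSO, and ABCC5 had 1.74 ± 0.0749 CPM per kb in AF and 2.37 ± 0.138 CPM per kb in DMSO, so these neighbours did not differ beyond their spread in either group. ABCC2 was last, at 0.0977 ± 0.0326 CPM per kb in AF and 0.0701 ± 0.0253 CPM per kb in DMSO. The order of the leading pair depended on the length used. With the longest coding transcript, ABCC1 had 19.1 ± 2.88 CPM per kb in AF and 12.7 ± 0.137 CPM per kb in DMSO. ABCC3 then had 19.4 ± 1.82 CPM per kb in AF and 12.3 ± 0.670 CPM per kb in DMSO, and the ranges of the 2 genes overlapped in both groups. With that length ABCC5 lay above ABCC4.

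The make-up of the family shifted accordingly. Of the summed CPM per kb of the 6 genes (merged exons), ABCC1 made up 47.3% ± 2.74 in AF and 41.2% ± 0.900 in DMSO, and ABCC3 32.9% ± 0.657 in AF and 27.4% ± 0.633 in DMSO (SD, n = 4 each). ABCC10 made up 9.49% ± 0.784 in AF and 13.4% ± 1.05 in DMSO. The share of ABCC4 was 4.99% ± 1.10 in AF and 8.89% ± 0.874 in DMSO, and that of ABCC5 5.01% ± 0.636 in AF and 8.86% ± 0.318 in DMSO. These shares sum to a whole, so a rise of one gene lowers the others, and they were not tested.

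**Figure D3:**
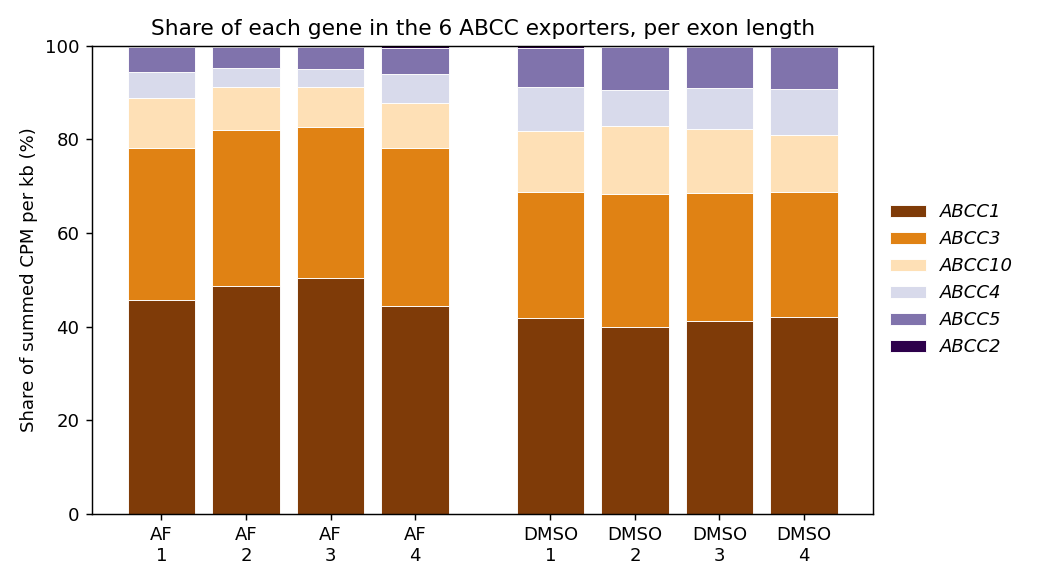
Share of each exporter in the summed CPM per kb of the 6 genes, 1 bar per library, AF left of DMSO. ABCC1 and ABCC3 fill more of each AF bar than of any DMSO bar, and ABCC2 (0.283% in AF and 0.262% in DMSO on average) is too thin to see.

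Ratios of one exporter to another within a library do not depend on how libraries are scaled. They come from the same counts as the levels above and are given as a description of how far the members moved apart. The log2 ratio of ABCC3 to ABCC4 counts was 2.90 ± 0.30 in AF and 1.78 ± 0.18 in DMSO (SD, n = 4 each), a difference of 1.12. For ABCC1 over ABCC4 the ranges were 2.66 to 3.48 in AF and 1.91 to 2.17 in DMSO, a difference of 1.05. The ratio of ABCC3 to ABCC5 differed by 1.10 between the groups and that of ABCC1 to ABCC5 by 1.03. The AF and DMSO values of these 4 ratios could not overlap, since the levels of both genes already lay apart in opposite directions. Over all 15 pairs of exporters the smallest adjusted p was 0.0612 (exact two-sided permutation test with Benjamini-Hochberg adjustment), so no pair passed. With 4 against 4 libraries no unadjusted p below 0.0286 is possible (exact permutation test). The 7 pairs without overlap all lay at that floor and still did not pass, so the test could not decide whether those ratios differ. Against ABCC10, which was not called, ABCC3 differed by 0.76 and ABCC1 by 0.69, and ABCC10 over ABCC5 differed by 0.33.

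The ratios of ABCC3 to ABCC1 and of ABCC5 to ABCC4 did not differ between AF and DMSO beyond the spread. These called genes moved the same way by similar amounts, and the pairs were singled out with that known. Such a ratio restates the difference of their fold changes, so its test is no separate support. ABCC3 over ABCC1 was -0.18 ± 0.10 in AF and -0.25 ± 0.06 in DMSO on the log2 scale (SD, n = 4 each; exact two-sided permutation test, p = 0.314, and 0.393 adjusted over the 15 pairs). ABCC5 over ABCC4 was 0.43 ± 0.15 in AF and 0.41 ± 0.18 in DMSO (exact two-sided permutation test, p = 0.771, and 0.771 adjusted). In both pairs the AF and DMSO values overlapped. Raw ratios of counts also carry the lengths of both genes, which are the same in every library.

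**Figure D4:**
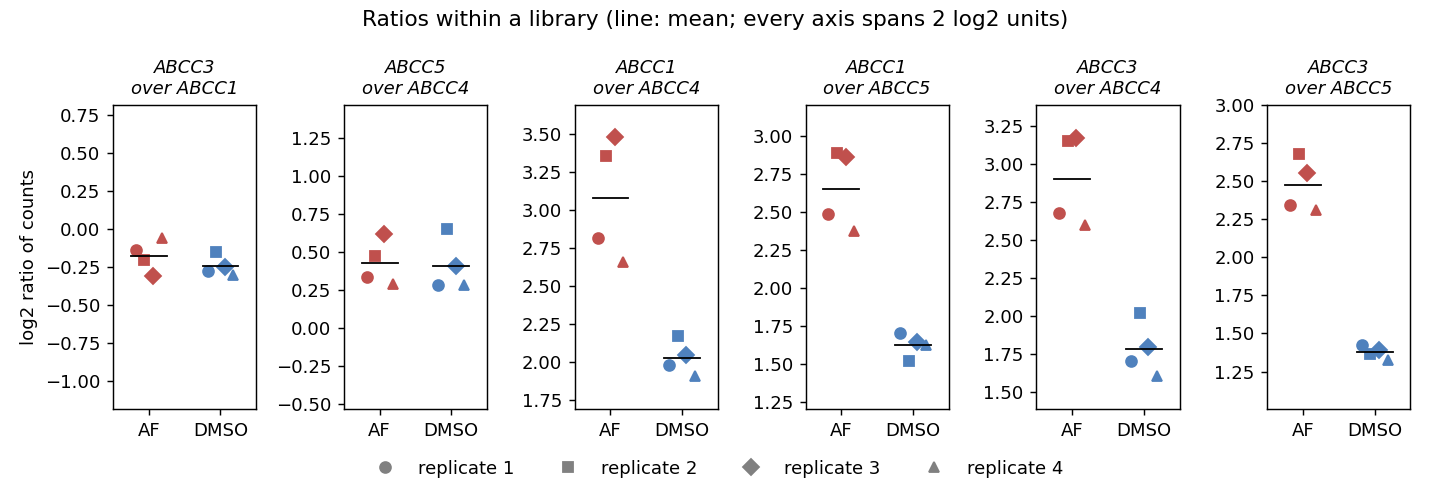
Log2 ratio of counts of 1 exporter to another in each library (pseudocount 0.5), every axis spanning the same number of log2 units, with the group mean as a line. The 2 panels on the left, of genes that moved the same way, overlap between AF and DMSO, and the 4 panels on the right, of genes that moved opposite ways, do not.

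The genes whose pattern over the 8 libraries was closest to each called exporter were found by the root-mean-square difference of log2 CPM, each centred on its own mean, among 10988 candidates with a symbol and a mean of at least 5 CPM. For ABCC3 these were the integrin gene ITGAX (0.0482), the pentose phosphate enzyme gene PGD (0.0557) and the matrix protein gene TGFBI (0.0566), against a spread of 0.336 of ABCC3 about its own mean. ITGAX (0.0754) was also among the 3 closest to ABCC1, after KREMEN1 (0.0693) and the kinase gene PIM2 (0.0745). Close to ABCC4 were CD244, an immune receptor gene (0.0574), and UTP20, of ribosome assembly (0.0725). Closest to ABCC5 were ATAD3A, of mitochondria (0.0279), the exchange factor gene FGD2 (0.0383) and the chaperone partner gene BAG1 (0.0439). All 8 libraries entered these distances, so the difference between AF and DMSO is part of each.

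Among genes that supply glutathione and attach it, those that passed the test were higher in AF. Of 6 tested genes of glutathione synthesis and recycling, 4 rose (66.7%) and 0 fell, with a median log2 fold change of 0.32. Over all genes tested, 7.62% were called higher and 7.81% lower. GCLM, the regulatory subunit of the rate-limiting ligase, rose by 0.63 ± 0.09, the cystine carrier gene SLC7A11 by 0.60 ± 0.10 and the reductase gene GSR by 0.30 ± 0.05. Of 16 tested glutathione transferases and mercapturate enzymes, 5 rose (31.2%) and 0 fell (median 0.17). The microsomal transferase gene MGST1 had 71.3 ± 6.25 CPM in AF and 43.2 ± 3.48 CPM in DMSO, a log2 fold change of 0.72 ± 0.08. GSTM3 and GSTM4 rose by 0.51 ± 0.09 and 0.42 ± 0.09, and reads may be divided unevenly among the similar GSTM genes. With library totals alone 0 of the 6 and 1 of the 16 were called, and leaving out any one of AF replicate 1, DMSO replicate 1 and DMSO replicate 2 left 3 of the 16.

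Of 11 tested genes of glucuronide and sulfate conjugation, 2 rose and 2 fell (36.4% called, against 15.4% over all genes tested, median 0.13). STS, which encodes steroid sulfatase and removes sulfate groups, had 5.64 ± 0.885 CPM in AF and 11.3 ± 1.45 CPM in DMSO, a log2 fold change of -1.01 ± 0.13. The sulfotransferase gene SULT1B1 fell by 0.69 ± 0.14. SULT1A1 rose by 0.30 ± 0.09 (adjusted p = 0.0334, edgeR), a call lost without any one of 6 libraries, for example AF replicate 3 (adjusted p = 0.123), and its close copies may share its reads. Without AF replicate 1, AF replicate 2 or any of DMSO replicates 2 to 4, the list had 2 calls. The 13 UGT genes listed had 0 counts in every library.

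Of 6 tested exporters outside the ABCC family 1 rose (16.7%, close to the 15.4% called over all genes), the multidrug and toxin extruder gene SLC47A1, with 2.10 ± 0.292 CPM in AF and 1.03 ± 0.222 CPM in DMSO (log2 fold change 1.02 ± 0.22). ABCB1, the P-glycoprotein gene, chosen once its values had been seen, was at -0.34 ± 0.13 on that scale without passing (adjusted p = 0.0818, edgeR), whereas without AF replicate 4 it was -0.42 (adjusted p = 0.0335), which made 2 calls in this list. ABCG2, also named after its values were seen, had 21 to 33 counts in AF and 17 to 33 counts in DMSO. Of 4 tested organic anion uptake carriers 1 was called (25%, against 15.4% over all genes). SLCO2B1, which takes up steroid sulfates, fell by 0.40 ± 0.09, and a second carrier was called without AF replicate 2. Of 5 tested genes that anchor such pumps at the membrane, edgeR and DESeq2 each called 0, and 1 had an unadjusted p under 0.05 in edgeR.

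Of 8 tested genes that make leukotrienes and prostaglandins, substrates of ABCC1 and ABCC4, 3 rose (37.5%) and 0 fell (median 0.02). Over all genes tested, 7.62% were called higher. PTGS2, the inducible cyclooxygenase gene, rose by 1.06 ± 0.24, LTA4H by 0.28 ± 0.06 and ALOX5AP, the partner of 5-lipoxygenase, by 0.29 ± 0.07. LTC4S, which makes leukotriene C4, was named after its values were seen and had a log2 fold change of -0.57 ± 0.21 that did not pass (adjusted p = 0.0806, edgeR). Of 6 tested folate genes, whose products handle another set of ABCC substrates, 2 fell (33.3%, against 7.81% over all genes tested). FOLR2, a folate receptor gene of macrophages, had 2.82 ± 0.728 CPM in AF and 6.99 ± 0.223 CPM in DMSO (log2 fold change -1.31 ± 0.16).

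Of 17 tested transcription regulators known to act on ABCC genes, 6 rose (35.3%) and 0 fell (median 0.08), and 0 were called with library totals alone. Over all genes tested, 7.62% were called higher. MAFF, a small MAF partner of NRF2, rose by 0.55 ± 0.09, BACH1, a repressor at antioxidant response elements, by 0.36 ± 0.06 and the nuclear receptor gene PPARA by 0.56 ± 0.10. NFE2L2, which encodes NRF2 itself, was named after its values were seen and rose by 0.35 ± 0.07 (adjusted p = 0.00269, edgeR).

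**Figure D5:**
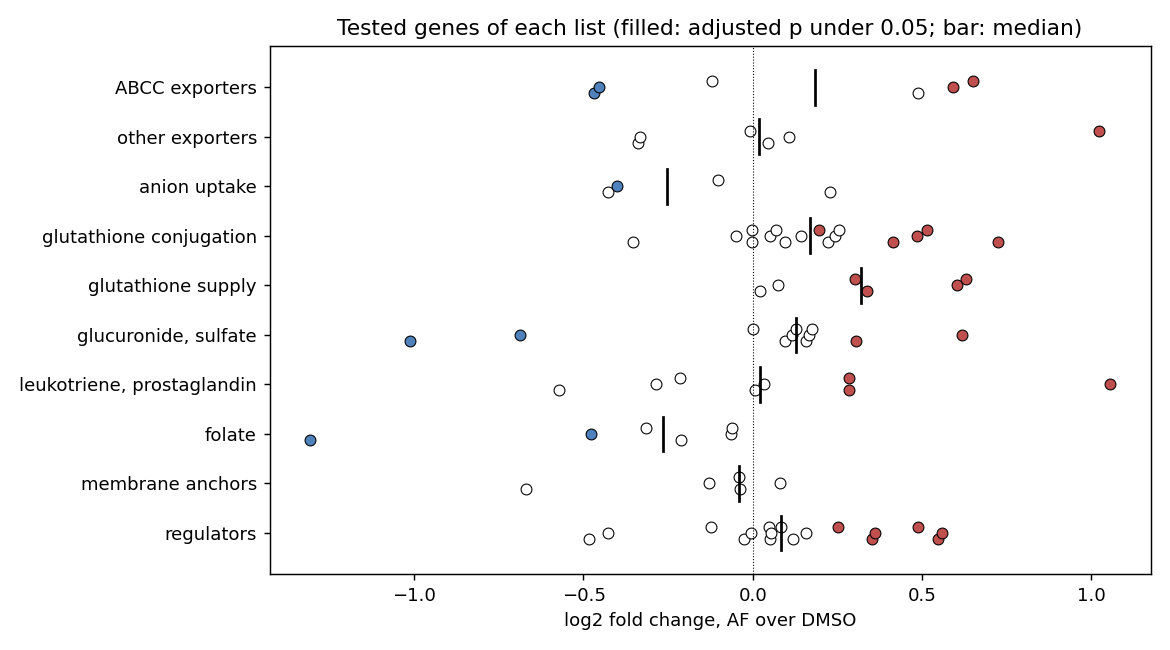
Log2 fold change, AF over DMSO, of every tested gene of each list, 1 point per gene, filled where the adjusted p was under 0.05 (red higher in AF, blue lower in AF), with the list median as a bar. The glutathione supply list lies furthest right by its median of 0.32, and the ABCC exporters have filled points on both sides of 0.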

How the data were processed

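The values deposited by the authors are raw read counts for each gene in 8 libraries, not normalised. Per the submitters' processing notes, the tools were STAR 2.6.1d, featureCounts and Subread 1.6.3, on GRCh38. Annotation, strand setting and handling of multi-mapped reads: not given in the sources used here. Per the labels' protocols, poly-A stranded libraries started from 250 ng of RNA. Groups and replicate numbers came from sample titles.

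The test was run in edgeR 4.0.16 (R 4.3.3), with TMM factors, the default filterByExpr (17535 genes kept), no block, 6 residual degrees of freedom, a two-sided test and a threshold of 0.05. The SE is the log2 fold change divided by the square root of F. CPM used TMM-scaled library sizes. Positions and lengths came from GENCODE 29 on GRCh38. Library names share stems. No pair within a group agreed within counting noise (chi-square per degree of freedom 2.78 or more), so none was treated as deposited more than once and all entered singly, which does not show that libraries of a stem are independent.

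The members, lists and tests were chosen with earlier results of these data known. Named genes were the 6 members, up to 3 called genes with the smallest p per list, and the 3 closest in pattern to each called member, except 1 gene that is not reported here. Alternatives were DESeq2 1.42.0, other scalings and filters, blocks, summed stems, and each library left out. After the data were seen, 2 divisions of the libraries were added: by the suffix of the library name, and libraries 1 and 4 against 2 and 3, a division taken from the counts in earlier work on these data. Each 95% interval is for the log2 fold change and rests on its SE, so it reflects only spread among these libraries.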

Additional observations from a re-analysis of the deposited data

How the results depend on the processing

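The 4 calls and all 6 directions were the same with DESeq2, other composition factors, other filters, blocks and summed stems, except that ABCC2 was not tested at 1 CPM in 4 libraries. Library totals alone gave log2 fold changes of 0.45 for ABCC1 and 0.50 for ABCC3, neither called, and 2 called exporters. They gave 883 called genes in all (183 higher, 700 lower), and 0 in glutathione supply, other exporters and regulators, 1 in glutathione conjugation and 2 in glucuronide and sulfate conjugation. The range without single libraries was 1616 (DMSO replicate 2) to 2964 (AF replicate 4) called genes, 768 to 1462 higher and 833 to 1502 lower. It was 1 to 2 calls for other exporters and for anion uptake, 3 to 5 for glutathione conjugation and 2 to 3 for glucuronide and sulfate conjugation.

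No label pairs libraries by replicate number, and the correlations of deviations did not settle it. Same-numbered libraries had 0.029 to 0.192 over 4 pairs, and differently numbered ones -0.128 to 0.042. Of the 4 AF libraries, 3 correlated best with their own number. With the replicate block 4188 genes were called (2102 higher, 2086 lower), against 2705 without it, and the calls of the 6 exporters were unchanged.

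Subsets added after seeing the data have 2 libraries per group, and the division into 1 and 4 against 2 and 3 comes from the counts, not the labels. In libraries 1 and 4 alone ABCC1 (0.41), ABCC4 (-0.39) and ABCC5 (-0.36) were not called, and in libraries 2 and 3 alone ABCC10 (-0.21) was. With library name suffix 1 alone ABCC4 (-0.45) was not called and ABCC2 turned to -0.011. With suffix 2 alone ABCC4 (-0.50) and ABCC5 (-0.46) were not called. Of the 2705 genes called with all libraries, libraries 1 and 4 alone kept 210 and libraries 2 and 3 alone kept 2495. Suffix 1 alone kept 889 of them, and suffix 2 alone kept 480. The cause was not tested. Depth limits ABCC2, with 8 to 32 counts per library.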

Other observations

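ABCC6, the neighbour of ABCC1 on chromosome 16, lies on the opposite strand, and 5853 bases separate the 3′ ends of these converging genes. It was named after its values were seen. It had 325, 635, 548 and 382 counts in AF replicates 1 to 4, against 425, 440, 336 and 278 counts in DMSO replicates 1 to 4, or 17.2 ± 1.67 CPM in AF and 14.8 ± 1.59 CPM in DMSO (SD, n = 4 each). Its log2 fold change of 0.22 had a 95% interval of -0.0034 to 0.43 and did not pass (adjusted p = 0.175, edgeR). The 4 entries of its pseudogenes held 2 to 46 counts, and reads may be divided among these copies. ABCC8 and ABCC12 had 0 counts in every library, and ABCC9 and ABCC11 had at most 10 and 12 counts. ABCC5-AS1 had 2 to 3 counts in AF and 0 to 12 counts in DMSO.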
